A study of Rattus norvegicus with 138 samples.

Results

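The genes described here are 8 of the 16181 gene symbols used from an RNA-Seq table of TPM values, levels scaled for transcript length and to a fixed total per library. They were chosen by symbol and comprise the platelet-derived growth factor (PDGF) receptors Pdgfra and Pdgfrb, the receptor-like gene Pdgfrl, the ligand genes Pdgfa, Pdgfb, Pdgfc and Pdgfd, and Pdpn, which encodes podoplanin. The tissue was the tibialis anterior (TA) muscle of inbred male Lewis rats of about 4 months. Volumetric muscle loss (VML) was made in the left TA with a 6 mm biopsy punch, and the right TA was the contralateral muscle. Some injured muscles were left without repair and others were filled with minced muscle graft (MMG), small pieces cut from the excised tissue of the same animal, so that a repaired sample also holds grafted muscle. Muscles were taken at 3, 7, 14 and 28 days post injury (DPI). A further set of rats was labelled as running, for which no regimen is given in the sources used here. Control muscles were the left and right TA of 2 rats, called sham in the labels and described by the study as uninjured and as unoperated.

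PDGF ligands are dimers that bind and activate receptor tyrosine kinases at the cell surface. The A and C chains act mainly through the α receptor, the B chain through either receptor and the D chain mainly through the β receptor. In skeletal muscle the α receptor marks the fibroadipogenic progenitors, mesenchymal cells between the fibres that can become fibroblasts or adipocytes, whereas the β receptor is carried by pericytes and other mural cells of the vessels and by fibroblasts. Podoplanin is a membrane mucin known from lymphatic endothelium and from activated fibroblasts and some macrophages.

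After 13 libraries with 901 to 5712 symbols above 1 TPM were left out, the remaining ones had 7866 to 10948 such symbols, and 114 muscles of 78 rats in 31 groups of 2 to 8 muscles entered the comparisons. All 8 genes were above 0 TPM in all 114 muscles, and all 8 were tested. Pdgfd, at 0.81 ± 0.55 TPM (SD, n = 4) in control muscle, was the one gene whose control mean was under the 1 TPM a tested gene had to exceed in some group, so it was tested because it was higher elsewhere. The muscle fibre markers summed to between 247863 and 309642 TPM in the control muscles and to between 49395 and 67617 TPM in injured muscle without repair at 3 DPI, where 12 of 12 were called lower than in control, against 4.24% of all genes. At 7 DPI 7 of the 12 were called lower, against 2.42% of all genes, Actn3 and Myh4 most (log2 fold change -2.72 and -2.15), and Pvalb and Tnni2 least (-1.01 and -1.31). In such bulk tissue, a larger number of cells of a type and more RNA per cell cannot be told apart.

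The stretches before the transcription start are shown for 4 genes that stand for the different time courses seen, with sequence from RefSeq on build GRCr8. Promoters were held for 6 of the 8 genes, Pdgfrb and Pdgfrl not among them. Each run covers the 250 bases upstream of the annotated start, 5′ to 3′ on the strand that reads as the transcript. Capitals mark exact matches, on either strand, to any of 5 motifs, namely the TATA box with the letters TATAAA, the CCAAT box with the letters CCAAT, the GC box with the letters GGGCGG, the AP-1 site with the letters TGANTCA and the E-box with the letters CACGTG. No match overlapped a match to another motif. The 4 genes are Pdgfra (chr14:33408517-33408766, minus strand) and Pdpn (chr5:160918960-160919209, minus strand), which were highest at 3 DPI, Pdgfd (chr8:11773258-11773507, plus strand), which was highest at 7 DPI, and Pdgfb (chr7:113438344-113438593, minus strand), which was not called against control on any day.
Pdgfra: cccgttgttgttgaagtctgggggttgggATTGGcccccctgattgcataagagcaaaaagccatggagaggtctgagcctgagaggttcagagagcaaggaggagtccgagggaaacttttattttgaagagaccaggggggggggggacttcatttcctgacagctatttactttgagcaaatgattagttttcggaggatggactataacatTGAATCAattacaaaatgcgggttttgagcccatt
Pdpn: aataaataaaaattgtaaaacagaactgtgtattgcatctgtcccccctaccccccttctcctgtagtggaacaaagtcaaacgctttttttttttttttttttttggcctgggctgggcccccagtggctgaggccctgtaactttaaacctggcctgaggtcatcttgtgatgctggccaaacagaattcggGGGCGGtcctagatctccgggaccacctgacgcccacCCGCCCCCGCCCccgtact
Pdgfd: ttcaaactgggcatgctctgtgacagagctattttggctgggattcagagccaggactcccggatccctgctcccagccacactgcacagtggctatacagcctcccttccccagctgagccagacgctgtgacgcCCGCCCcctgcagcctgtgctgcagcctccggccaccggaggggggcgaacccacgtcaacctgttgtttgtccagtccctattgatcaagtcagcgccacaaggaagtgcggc
Pdgfb: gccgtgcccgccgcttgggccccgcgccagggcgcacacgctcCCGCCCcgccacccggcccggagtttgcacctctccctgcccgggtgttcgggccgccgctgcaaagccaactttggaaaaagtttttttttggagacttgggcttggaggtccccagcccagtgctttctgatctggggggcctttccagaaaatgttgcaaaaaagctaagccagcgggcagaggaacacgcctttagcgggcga

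The Pdgfra stretch held a CCAAT box and an AP-1 site, motifs found in 34.0% and 6.34% of the 33469 promoters of the same length. GC boxes, present in 30.5% of those promoters, were matched 3 times in the Pdpn stretch and once each in those of Pdgfd and Pdgfb. Neither a TATA box nor an E-box, found in 12.9% and 5.59% of promoters, was matched in any of the 6 stretches. Pdgfra and Pdpn, whose levels moved together over the groups, had no matched motif in common.

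Injured muscle was compared with control at each day, a comparison in which all days share the same 4 control muscles. Where all injured muscles are said below to lie above all controls, the share of all genes with the same separation was not counted. A gene was called when its Benjamini-Hochberg adjusted p in limma was under 0.05 and its log2 fold change, on the log2(TPM + 1) scale, was beyond 1. Of the 8 genes, 6 were called higher on each of the first days, 3 and 7 DPI, and 5 on each of the later days, 14 and 28 DPI, and none was called lower. The same call was made for 48.3%, 45.6%, 25% and 21.1% of the 11328 genes tested, and the median log2 fold change of all genes was 0.96, 0.92, 0.53 and 0.52 on those days, against 1.83, 2.42, 1.93 and 1.58 for the 8 genes. With median-of-ratios size factors the medians of all genes fell to 0.09, 0.08, 0.02 and 0.04, and Pdgfra, Pdgfrb, Pdgfrl and Pdpn were still called higher on each day, as were 24.5%, 21.9%, 15.8% and 11.5% of all genes.

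**Figure D1:**
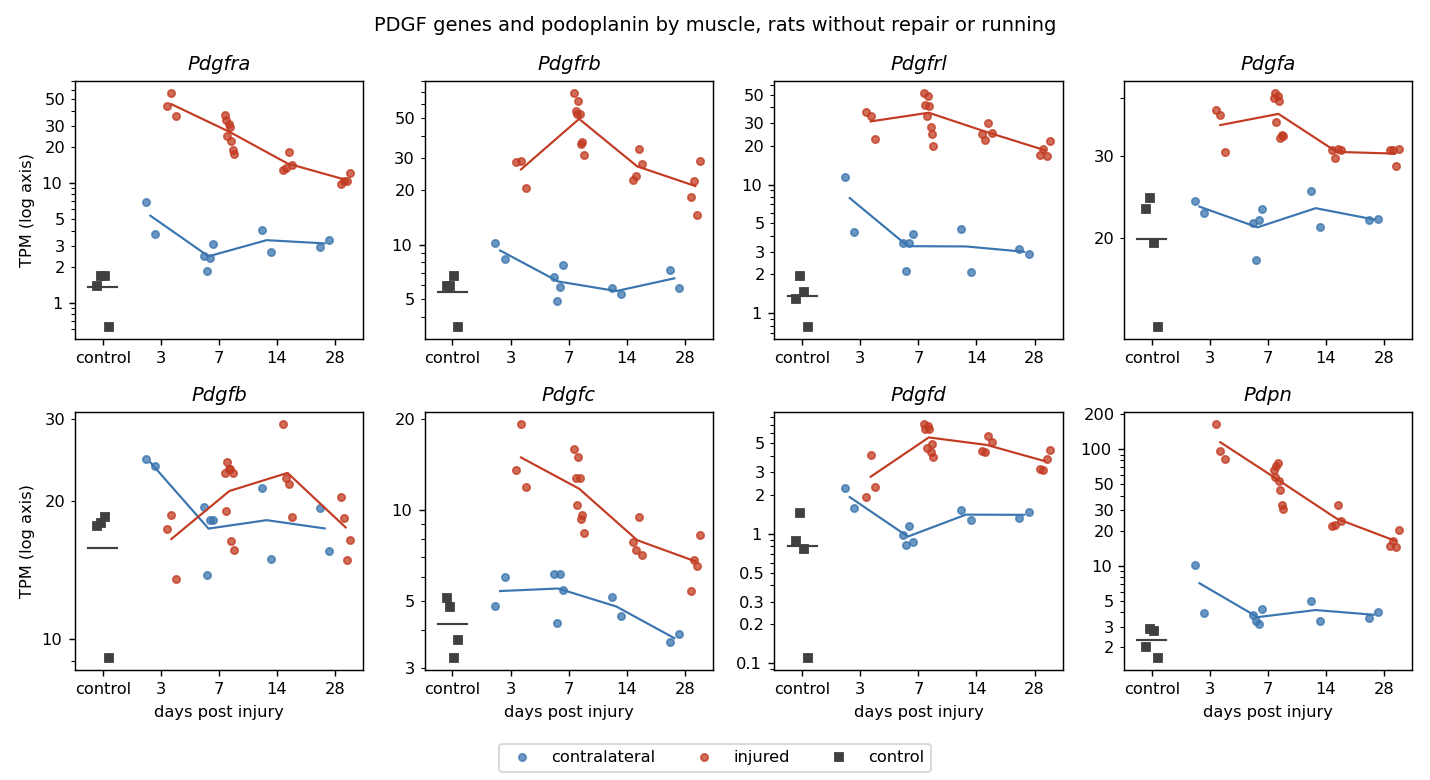
TPM of each gene (log axis, its own range per panel) in control muscle (squares, 4 muscles) and in contralateral (blue) and injured muscle (red) of rats without repair or running, by days post injury; each point is 1 muscle and lines join group means. Pdgfra and Pdpn were highest at 3 DPI, Pdgfrb, Pdgfrl and Pdgfd at 7 DPI, and the Pdgfb points of injured and control muscle overlapped.

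Pdgfra encodes the α receptor. Its level was 1.38, 1.69, 1.69 and 0.63 TPM in the 4 control muscles and 43.3, 56.4 and 36.2 TPM in the 3 injured muscles at 3 DPI. At 7 DPI it ranged from 17.3 to 36.8 TPM with a median of 26.8 TPM over 8 muscles. At 14 DPI the 4 muscles held 12.7, 13.2, 18.1 and 14.0 TPM, and at 28 DPI 9.74, 10.4, 10.3 and 12.02 TPM. No injured muscle overlapped the controls, and the group mean was lower on each later day while staying above control. The log2 fold change against control was 4.31 (SE 0.21, adjusted p = 1.8e-32) at 3 DPI, 3.54 (SE 0.17) at 7 DPI, 2.74 (SE 0.20) at 14 DPI and 2.33 (SE 0.20, adjusted p = 1.1e-17) at 28 DPI.

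Pdgfrb encodes the β receptor and was the more abundant receptor in control muscle, at 5.91, 5.91, 6.69 and 3.52 TPM. Injured muscle held 28.6, 28.98 and 20.6 TPM at 3 DPI, and 31.2 to 69.1 TPM with a median of 52.7 TPM at 7 DPI. The 4 muscles at 14 DPI held 22.7, 23.95, 33.7 and 28.1 TPM, and those at 28 DPI 18.3, 22.6, 14.6 and 29 TPM. All injured muscles were above all controls, and the 7 DPI muscles were above all those at 3 DPI. Against control the log2 fold change was 2.07 (SE 0.24) at 3 DPI, 2.94 (SE 0.19, adjusted p = 1.2e-25) at 7 DPI, 2.12 (SE 0.22) at 14 DPI and 1.75 (SE 0.22, adjusted p = 6.9e-11) at 28 DPI.

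Pdgfrl encodes a secreted protein that resembles the ligand-binding part of the receptors and has no kinase. It rose from 1.28, 1.96, 1.45 and 0.78 TPM in control muscle to 36.4, 34.0 and 22.7 TPM at 3 DPI. It ranged from 20.1 to 51.8 TPM with a median of 37.7 TPM at 7 DPI, was at 24.9, 22.4, 30.0 and 25.1 TPM at 14 DPI and was still at 16.95, 18.8, 16.5 and 21.7 TPM at 28 DPI. The groups did not overlap on any day. Its log2 fold changes against control were 3.75 (SE 0.31), 3.93 (SE 0.25), 3.51 (SE 0.28) and 3.06 (SE 0.28, adjusted p = 5.5e-16) at 3, 7, 14 and 28 DPI. At 28 DPI this was the greatest log2 fold change among the 8 genes.

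Pdpn was at 2.03, 2.90, 2.76 and 1.62 TPM in control muscle and at 165, 97.1 and 82.1 TPM in injured muscle at 3 DPI, the highest level of the 8 genes in that group. It ranged from 30.7 to 75.6 TPM with a median of 55.9 TPM at 7 DPI, and was at 21.9, 22.2, 33.3 and 24.3 TPM at 14 DPI and at 14.9, 16.3, 14.4 and 20.2 TPM at 28 DPI. Each injured group was above all controls. The log2 fold change against control was 5.1 (SE 0.27, adjusted p = 4.6e-31) at 3 DPI, 4.01 (SE 0.21) at 7 DPI, 2.99 (SE 0.25) at 14 DPI and 2.40 (SE 0.25, adjusted p = 4.0e-14) at 28 DPI. Lymphatic endothelial markers were called higher for 2 of 5 tested genes on each day, near the share of all genes at 3 and 7 DPI (48.3% and 45.6%), with a median log2 fold change at 7 DPI of 0.87 against 0.92 over all genes. Ccl21 and Lyve1 were those with the highest log2 fold changes at 7 DPI (3.24 and 1.92), and Prox1, the defining lymphatic factor, was at 0.67. The macrophage markers, called higher in 12 of 12 on each day, summed to 32.9 to 64.7 TPM in control muscle and to 5211 to 6648 TPM at 3 DPI, and their part in the Pdpn level was not tested.

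Of the ligands that signal mainly through the α receptor, Pdgfc was called higher on the early days and Pdgfa on none. Pdgfc, a ligand secreted in a latent form, was at 5.1, 4.78, 3.24 and 3.71 TPM in control muscle, at 13.6, 19.3 and 11.96 TPM at 3 DPI and at 8.40 to 15.9 TPM (median 11.6 TPM) at 7 DPI. By 28 DPI it was at 5.41, 6.83, 6.55 and 8.30 TPM, close to but above the highest control muscle. It was called at 3 DPI (log2 fold change 1.60, SE 0.18, adjusted p = 2.0e-13) and 7 DPI (1.28, SE 0.14) and not at 14 or 28 DPI (0.79 and 0.58). With size factors the values at 3 and 7 DPI were 0.60 and 0.34, and neither was called, and with all libraries kept that at 7 DPI was 0.96.

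Pdgfa was the most abundant ligand gene in every muscle group in the time course without repair or running except contralateral muscle at 3 DPI. It was at 23.1, 24.3, 19.6 and 12.9 TPM in control muscle, at 37.6, 36.7 and 30.6 TPM at 3 DPI and at 32.8 to 41.0 TPM (median 37.4 TPM) at 7 DPI. It was at 30.8, 29.7, 31.01 and 30.9 TPM at 14 DPI and at 30.9, 30.97, 28.5 and 31.03 TPM at 28 DPI. Every injured muscle was above every control muscle, and the log2 fold changes of 0.81, 0.89, 0.63 and 0.62 passed the adjusted p on all 4 days (largest 7.7e-06), as did 85.2%, 88.2%, 72.3% and 71.8% of all genes, while none reached the fold change required. With size factors these values were -0.30, -0.17, -0.04 and -0.03, so that the direction of the Pdgfa difference depends on the scaling.

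Pdgfb, the chain that binds either receptor and is made by endothelium and platelets, had the smallest log2 fold change of the 8 genes on each day. Its level was 17.7, 17.9, 18.5 and 9.11 TPM in control muscle and 17.4, 18.6 and 13.5 TPM at 3 DPI. It ranged from 15.6 to 24.2 TPM (median 22.9 TPM) at 7 DPI, was at 29.3, 22.4, 21.7 and 18.4 TPM at 14 DPI and at 20.3, 18.4, 14.8 and 16.5 TPM at 28 DPI. Injured and control muscles overlapped on every day. The log2 fold changes of 0.10, 0.42, 0.54 and 0.18 were not called. Those at 7 and 14 DPI passed the adjusted p (0.0099 and 0.0054), as most genes did, and the 95% interval at 3 DPI ran from -0.29 to 0.49. Size factors turned these values to -0.99, -0.61, -0.11 and -0.46. The control muscle at 9.11 TPM, the right TA of the rat numbered 38, was also the lowest of the 4 for 6 of the other 7 genes.

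Pdgfd, secreted in a latent form like Pdgfc, was the least abundant ligand. It was at 0.89, 1.46, 0.77 and 0.11 TPM in control muscle and at 1.93, 4.08 and 2.29 TPM at 3 DPI. It ranged from 3.90 to 7.08 TPM (median 5.70 TPM) at 7 DPI, was at 4.38, 4.29, 5.71 and 5.1 TPM at 14 DPI and at 3.15, 3.14, 3.82 and 4.47 TPM at 28 DPI. All injured muscles were above all controls. It was called on each day, with log2 fold changes of 1.07 (SE 0.21), 1.89 (SE 0.17, adjusted p = 3.6e-18), 1.75 (SE 0.19) and 1.41 (SE 0.19). At 3 DPI the call rested on single muscles: the log2 fold change was 0.86 without the right TA of control rat 38, 0.84 without the injured TA of rat 17 and 0.52 with size factors, none of them called.

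The order of levels within a library can be compared because TPM is scaled for length. In control muscle Pdgfa (19.98 ± 5.119 TPM, SD, n = 4) and Pdgfb (15.8 ± 4.46 TPM) were the most abundant and overlapped each other. Pdgfrb (5.51 ± 1.38 TPM) and Pdgfc (4.22 ± 0.89 TPM) followed and overlapped, then Pdpn (2.33 ± 0.61 TPM), and Pdgfrl (1.37 ± 0.49 TPM), Pdgfra (1.35 ± 0.50 TPM) and Pdgfd (0.81 ± 0.55 TPM) were lowest and not separated by their spread. In injured muscle at 3 DPI Pdpn (115 ± 44.1 TPM, n = 3) led, above Pdgfra (45.3 ± 10.2 TPM) and all other genes in each of the 3 muscles. Pdgfa (34.9 ± 3.79 TPM), Pdgfrl (31.02 ± 7.35 TPM) and Pdgfrb (26.1 ± 4.73 TPM) overlapped in part, Pdgfb (16.5 ± 2.66 TPM) and Pdgfc (14.9 ± 3.86 TPM) overlapped, and Pdgfd (2.77 ± 1.15 TPM) remained lowest.

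The balance of the receptors was described by the ratio of Pdgfra to Pdgfrb TPM within each muscle, a quantity that library scaling cannot change. This ratio was chosen after the levels were seen and is given with no test. It was 0.18 to 0.29 in the 4 control muscles and 1.36 to 2.48, with a median of 1.93, in the 24 injured muscles at 3 DPI, with the graft and running groups included. At 7 DPI it was 0.45 to 0.67 in 24 injured muscles, at 14 DPI 0.42 to 0.86 in 16 and at 28 DPI 0.41 to 0.78 in 12. The 3 DPI muscles thus stood apart from all other injured muscles in each of the 4 combinations of repair and running. In contralateral muscle the ratio was 0.39 to 0.85 in 8 muscles at 3 DPI and 0.36 to 0.78 in 14 at 7 DPI. The group means of injured muscle at 3 DPI were 1.74 ± 0.22 without repair (SD, n = 3), 1.73 ± 0.24 with graft (n = 7), 2.02 ± 0.31 in running rats without repair (n = 8) and 2.09 ± 0.14 in running rats with graft (n = 6).

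**Figure D2:**
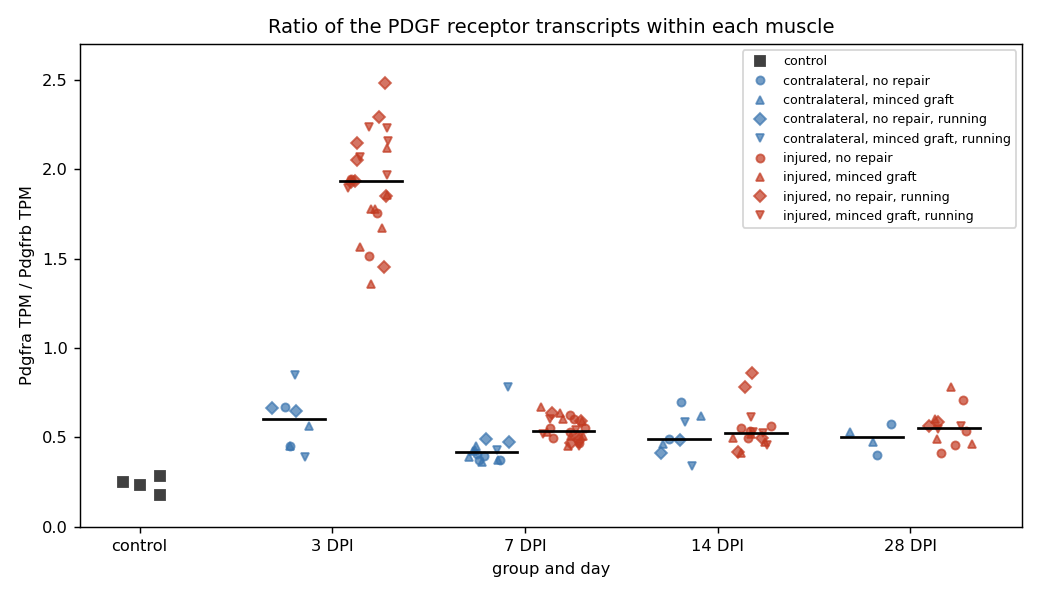
Ratio of Pdgfra to Pdgfrb TPM in each muscle, by group and day; black bars are medians over the repair and running groups of contralateral (blue) or injured muscle (red). The 24 injured muscles at 3 DPI lay between 1.36 and 2.48, above every other muscle, the next highest being 0.86.

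The day of the highest group mean was the same in all 4 combinations of repair and running, which share no muscle, for 7 of the 8 genes. The share of all genes with the same day in all 4 was not counted, and all 4 share the course of injury. Pdgfra, Pdgfc and Pdpn were highest at 3 DPI in 4 of 4, and Pdgfrb, Pdgfrl, Pdgfa and Pdgfd at 7 DPI in 4 of 4. For Pdgfa the order of days depends on the scaling. With size factors its difference from control without repair or running, given above, was lowest at 3 DPI and highest at 28 DPI. Pdgfb was highest at 7 DPI in 1, at 14 DPI in 1 and at 28 DPI in 2, and its highest mean was 1.22 to 1.39 times its lowest. For Pdgfra the highest mean was 4.27 to 5.83 times the lowest, which was at 28 DPI in each.

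Successive days were compared among injured muscles without repair or running. From 3 to 7 DPI Pdpn fell by 1.07 on the log2 scale (SE 0.24, adjusted p = 0.00016), the only one of the 8 called lower, against 5.35% of all genes. Pdgfra passed the adjusted p but not the fold (-0.76, SE 0.19), as did Pdgfrb (0.87, SE 0.21) and Pdgfd (0.82, SE 0.19) in the other direction. From 7 to 14 DPI Pdpn fell by 1.02 (SE 0.21, adjusted p = 2.8e-05), again the only member called lower, against 6.1% of all genes. Pdgfra (-0.80), Pdgfrb (-0.82), Pdgfa (-0.26) and Pdgfc (-0.49) passed the adjusted p alone. It was passed by 71% of all genes, whose median was -0.40. From 14 to 28 DPI none was called, against 0.353% of genes called lower. Both Pdpn calls lay close to the required fold: the first was -0.77 without the injured TA of rat 10, -0.98 and -0.96 without replicates 10 and 11 of the 7 DPI group in turn and -0.93 with the range of rat numbers in the model. The second lost its call without any one of rats 11, 12, 19 and 20 or of replicates 1 and 2 at 14 DPI (-0.94 to -0.996), with size factors (-0.63) and with all libraries kept (-0.66).

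Injured muscle was next compared with contralateral muscle as groups, with 3, 8, 4 and 4 injured against 2, 4, 2 and 2 contralateral muscles in order of day, so that only part of the injured muscles had a contralateral muscle of the same rat in the comparison. Called higher were 5 of the 8 genes at 3, 7 and 14 DPI and 4 at 28 DPI, against 32.3%, 45.3%, 20.9% and 13.1% of all genes. Pdgfra, Pdgfrb, Pdgfrl and Pdpn were called on all 4 days. The log2 fold change of Pdgfra was 2.89 (SE 0.26) at 3 DPI and 1.49 (SE 0.24) at 28 DPI, and that of Pdpn 3.89 (SE 0.32) and 1.85 (SE 0.30). Pdgfrb reached 2.76 (SE 0.19) and Pdgfrl 3.07 (SE 0.25) at 7 DPI. With size factors Pdgfrb at 3 DPI was 0.84 and lost its call. Pdgfc was called at 3 DPI (1.30, SE 0.22, but 0.77 and not called with size factors) and lay just under the required fold at 7 DPI (0.96), and Pdgfd at 7 DPI (1.73, SE 0.17) and 14 DPI (1.28, SE 0.24, but 0.87 and not called with size factors). Pdgfb was lower in injured than in contralateral muscle at 3 DPI by an amount under the required fold (-0.54, SE 0.23, adjusted p = 0.033), the contralateral muscles holding 24.7 and 23.8 TPM, and with size factors it was called lower (-1.08, adjusted p = 4.2e-06).

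**Figure D3:**
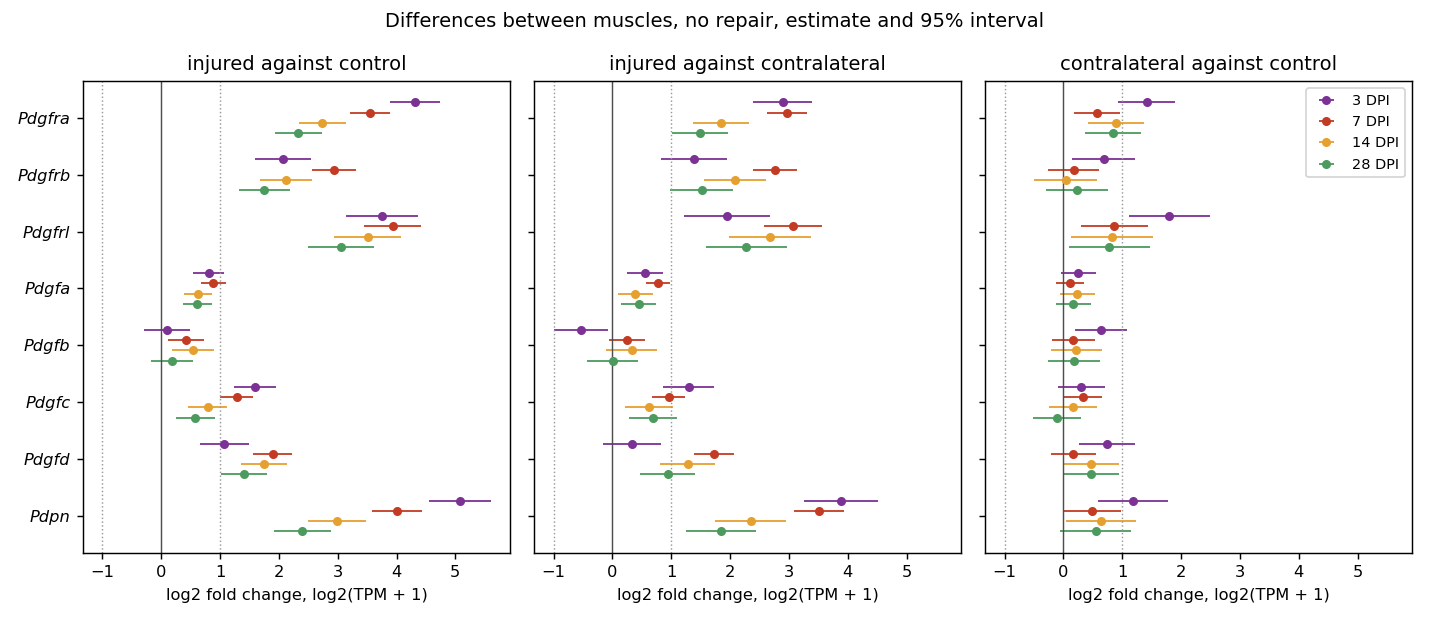
Log2 fold change (log2(TPM + 1) scale) with 95% intervals from limma for each gene, for injured against control, injured against contralateral and contralateral against control muscle without repair or running; colours are days and dotted lines mark a log2 fold change of 1 in either direction. Pdgfra, Pdgfrb, Pdgfrl and Pdpn lay beyond 1 in both injured comparisons on all days, and Pdgfra, Pdgfrl and Pdpn in the contralateral comparison at 3 DPI.

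Both muscles were kept for 34 rats, so the same question was put within animals over all repair and running groups. Pdgfra, Pdgfrb, Pdgfrl, Pdgfa and Pdpn were higher in the injured muscle of 34 of 34 rats, Pdgfc and Pdgfd in 33 and Pdgfb in 24. How many of all genes were higher in every rat was not counted, so these counts do not set the 8 genes apart. The median ratio of injured to contralateral TPM was 11.8 for Pdpn, 8.14 for Pdgfra, 7.03 for Pdgfrl, 4.48 for Pdgfrb, 3.38 for Pdgfd, 2.20 for Pdgfc, 1.60 for Pdgfa and 1.16 for Pdgfb. No within-rat ratio was computed over all genes. In the unpaired groups without repair, the median log2 fold change of all genes on the log2(TPM + 1) scale was 0.54, 0.91, 0.50 and 0.38 at the 4 days. The Pdgfa ratio, with medians of 1.72, 1.80, 1.29 and 1.48 on those days, can be called that of a typical gene only roughly. By day, the Pdpn ratio was 12.5 to 38.5 (median 25.7) in 8 rats at 3 DPI and 4.05 to 7.04 (median 4.45) in 4 rats at 28 DPI. Pdgfb was higher in the injured muscle of 2 of 8 rats at 3 DPI (median ratio 0.80) and of 12 of 14 at 7 DPI (median ratio 1.204). Pdgfd had a median ratio of 1.61 at 3 DPI and 5.33 at 7 DPI.

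**Figure D4:**
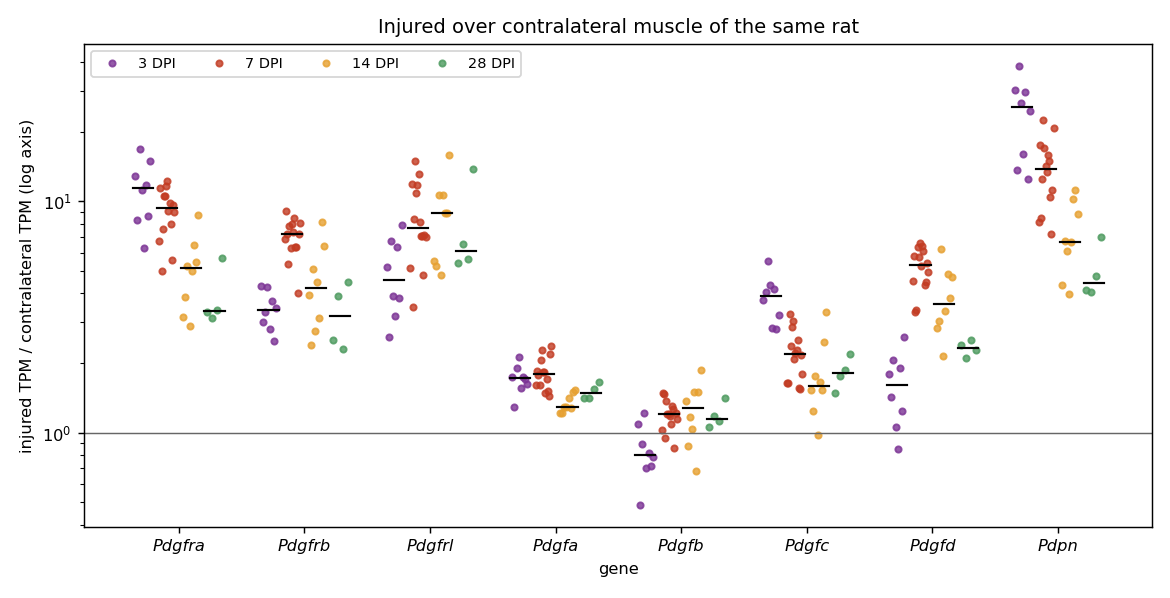
Ratio of injured to contralateral TPM (log axis) in each of 34 rats, by gene and day (colours), with black bars at the median of a day; the line at 1 marks equal levels. Pdgfra, Pdgfrb, Pdgfrl, Pdgfa and Pdpn were above 1 in every rat, and Pdgfb at 3 DPI was above 1 in 2 of 8 rats. The same count was not made over all genes.

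Contralateral muscle itself differed from control. At 3 DPI 3 of the 8 genes were called higher, against 6.37% of all genes: Pdgfrl (log2 fold change 1.80, SE 0.35, adjusted p = 3.9e-05), Pdgfra (1.41, SE 0.24, adjusted p = 6.2e-06) and Pdpn (1.18, SE 0.30, adjusted p = 0.0011). None was called at 7, 14 or 28 DPI by limma, where 0.636%, 0.653% and 0.185% of genes were called higher. The 2 contralateral muscles at 3 DPI differed from each other: rat 10 held 6.87 TPM of Pdgfra, 11.4 TPM of Pdgfrl and 10.2 TPM of Pdpn, and rat 17 held 3.78, 4.31 and 3.95 TPM. Without rat 10 the Pdgfrl and Pdpn calls were lost (1.19 with adjusted p = 0.066, and 0.59), and when only the 2 groups compared were fitted none of the 3 was called (adjusted p = 0.073 to 0.098). Pdpn was also not called with size factors (0.78) or with all libraries kept (1.18, adjusted p = 0.34). Fibroblast markers were called higher at 3 DPI in 18 of 22 and macrophage markers in 11 of 12, the macrophage markers summing to 348 TPM in rat 10, 140 TPM in rat 17 and 32.9 to 64.7 TPM in control, and the fibroblast markers to 2954, 1283 and 209 to 653 TPM. Their part in the contralateral difference was not tested.

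Over all repair and running groups, every one of 34 contralateral muscles was above the highest control muscle for Pdgfra, Pdgfrl and Pdpn. The share of all genes separated in this way was not counted. In the limma comparison of contralateral muscle without repair with control at 3 DPI, 54.1% of all genes passed the adjusted p. The margin of the lowest muscle was small: the lowest contralateral level of Pdgfra was 1.83 TPM against 1.69 TPM in the highest control, that of Pdgfrl 2.09 against 1.96 TPM and that of Pdpn 3.08 against 2.90 TPM. The contralateral median of Pdgfra was 5.39 TPM over 8 muscles at 3 DPI, 3.16 TPM over 14 at 7 DPI, 3.53 TPM over 8 at 14 DPI and 2.95 TPM over 4 at 28 DPI. The control rats belong to another numbered series of animals than all operated rats, and that series and the operation cannot be told apart.

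The graft comparison asked whether repair changed these genes in injured muscle. None of the 8 was called at 3, 7, 14 or 28 DPI by limma, where 0.00883%, 0.0883%, 0.0265% and 0% of all genes were called in either direction. At 7 DPI Pdgfa (46.0 ± 5.55 TPM with graft and 36.9 ± 3.60 TPM without, SD, n = 8 each) and Pdgfc (15.3 ± 1.36 and 11.8 ± 2.76 TPM) were higher with graft and passed the adjusted p, at log2 fold changes of 0.31 (adjusted p = 0.018) and 0.38 (adjusted p = 0.033), an adjusted p that 8.19% of all genes passed on that day. In all, 4 genes had an unadjusted p under 0.05 at that day, and none on the other days. The intervals bound what was not seen: for Pdgfra the 95% interval of the difference was -0.0016 to 0.77 at 3 DPI and 0.07 to 0.63 at 7 DPI, and for Pdpn -0.18 to 0.78 and -0.07 to 0.62. Against the contralateral muscles of grafted rats (7, 8, 4 and 4 injured against 2, 6, 2 and 2 contralateral muscles, not paired), grafted muscles were called higher for 5, 6, 5 and 4 of the genes at 3, 7, 14 and 28 DPI, against 37.2%, 42.9%, 25.6% and 18.8% of all genes. With size factors the 5 at 3 DPI became 3, against 21.7% of all genes under that scaling.

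At 7 DPI the rats fall into a low, a middle and a high range of rat numbers whose meaning is not given in the sources used here, and the difference between grafted and ungrafted muscle was not the same in each. In the high range the mean Pdgfra level was 36.5 TPM with graft and 18.1 TPM without (2 muscles each), and that of Pdpn 61.7 and 31.97 TPM. The marker sums of the same muscles moved with them: those without graft had macrophage sums of 996 and 850 TPM, below the 1753 to 3684 TPM of the other ungrafted muscles, and fibroblast sums of 9219 and 8195 TPM, while those with graft had 3497 and 3103 TPM and 16602 and 15665 TPM. Their part in the difference was not tested. In the low range, rats 1 to 32, Pdgfra was at 35.1 ± 1.08 TPM with graft and 31.4 ± 5.119 TPM without (SD, n = 4 each), and Pdpn at 70.4 ± 11.1 and 67.9 ± 7.66 TPM. In the middle range the values were 27.4 and 25.8 TPM for Pdgfra and 52.6 and 49.4 TPM for Pdpn (2 muscles each). Pdgfc was higher with graft in each range, at 15.7 and 13.5 TPM, 16.4 and 9.01 TPM, and 13.5 and 11.1 TPM in the low, high and middle range. The macrophage sums were 2906 to 5198 TPM with graft and 2374 to 3684 TPM without in the low range, and 2453 and 2820 TPM against 1753 and 1911 TPM in the middle range, and their part in the Pdgfc and Pdgfa differences was not tested.

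Running rats were compared with the other rats of the same repair. None of the 8 genes was called by limma in any of 8 comparisons, where the share of all genes called was 0.0441%, 0%, 0.0177% and 0.0177% at 3, 7, 14 and 28 DPI without repair and 0% at each day with graft. Unadjusted p values under 0.05 were seen for 3, 3, 0 and 1 genes without repair and for none with graft. Pdgfra at 3 DPI without repair was at 62.0 ± 10.6 TPM in running rats (SD, n = 8) and 45.3 ± 10.2 TPM in the others (n = 3), a log2 fold change of 0.45 with an interval of 0.07 to 0.83 (adjusted p = 0.26). In the low range of rat numbers, which holds all 3 of the others, the running mean was 60.9 ± 14.6 TPM (n = 4). At 7 DPI, where all running rats were numbered 1 to 32, Pdgfra was at 31.4 ± 9.10 TPM in running rats and 31.4 ± 5.119 TPM in the others of that range (n = 4 each), and Pdgfrl at 54.5 ± 20.2 and 44.1 ± 7.72 TPM.

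**Figure D5:**
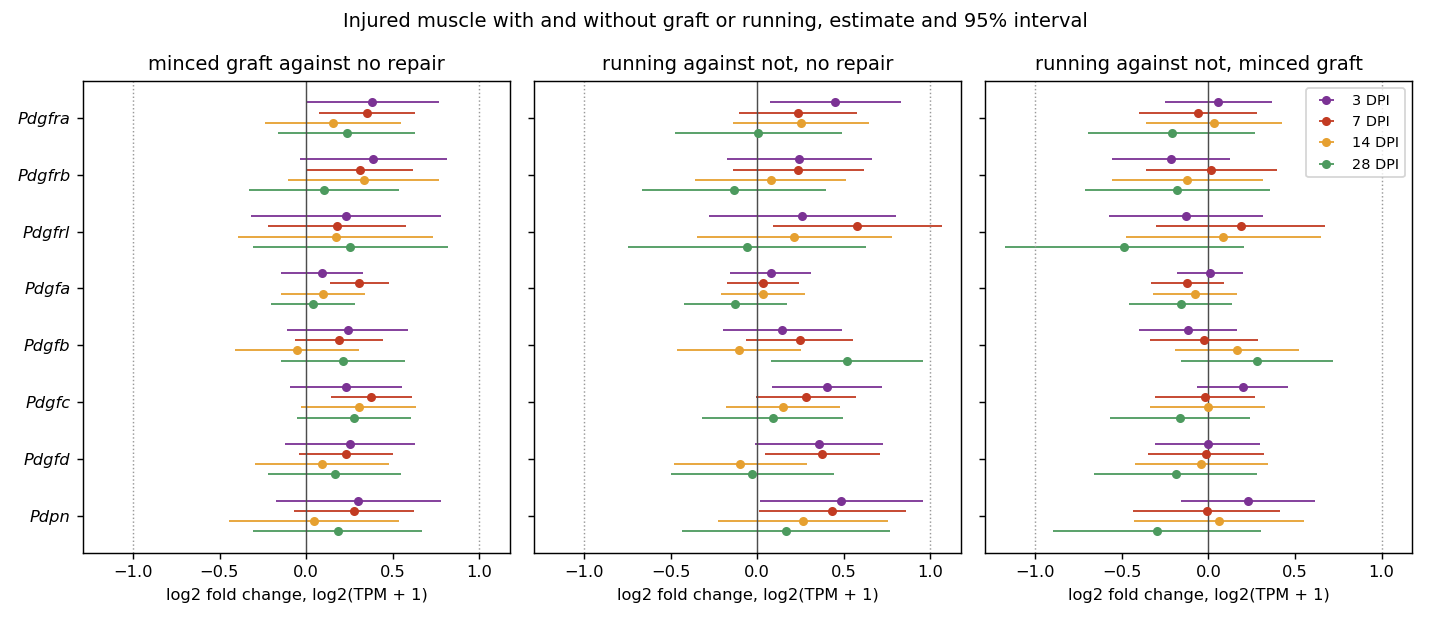
Log2 fold change (log2(TPM + 1) scale) with 95% intervals from limma in injured muscle for graft against no repair and for running against not running without repair and with graft; colours are days and dotted lines mark a log2 fold change of 1. All estimates lay between the dotted lines, and the largest was 0.58 for Pdgfrl at 7 DPI in running rats without repair.

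The partners of the PDGF genes were followed in lists written from known gene functions. Among 11 genes that process the ligands or bind ligands or receptors, 10, 11, 9 and 7 were called higher than control at 3, 7, 14 and 28 DPI, with median log2 fold changes of 2.46, 2.60, 1.53 and 1.17, where 48.3%, 45.6%, 25% and 21.1% of all genes were called higher and the medians of all genes were 0.96, 0.92, 0.53 and 0.52. At 7 DPI the greatest were Sparc, a matrix protein that binds PDGF (168 ± 25.6 TPM in control, n = 4, and 3901 ± 1381 TPM injured, n = 8, SD, log2 fold change 4.45), and Lrp1, an endocytic co-receptor of Pdgfrb (3.42). The smallest were the proprotein convertases Pcsk6 (1.25) and Furin (1.28), the latter known to cleave the A and B chains. Plat and Plau, proteases known to activate the C and D chains, were named after their values were seen and stood at 2.75 and 2.94.

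Of 37 tested genes of signalling below the receptors, 20 were called higher and 1 lower at 3 DPI, and 18, 11 and 7 higher at 7, 14 and 28 DPI with none lower. These shares, and the median log2 fold changes of 1.16, 0.93, 0.64 and 0.46, lay near those of all genes. Myc, a growth-regulating transcription factor (1.37 ± 0.44 TPM in control, 17.5 ± 2.83 TPM at 7 DPI, log2 fold change 2.97), and the adaptor Shc1 (2.89) were highest at 7 DPI. The AP-1 gene Jun (1.03) was among the lowest of those called. Hras (-0.59), Sos2 (-0.57) and Ptpn11 (-0.74), named after their values were seen, had negative values at 7 DPI and were not called.

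Marker lists of the cells that carry the receptors were read beside them, and their counts are to be set against the 48.3%, 45.6%, 25% and 21.1% of all genes called higher on the same days. Fibroadipogenic and fibroblast markers were called higher in 19, 19, 20 and 20 of 22 at 3, 7, 14 and 28 DPI, with medians of 3.27, 3.72, 3.36 and 2.77. The matrix genes Postn (log2 fold change 8.51, from 2.38 ± 0.83 to 1261 ± 422 TPM) and Col1a1 (7.38) were highest at 7 DPI, and Dpp4 (1.74) and Tcf7l2 (1.87) lowest of those called. Pericyte and mural markers were called higher in 7, 11, 7 and 4 of 14, the count at 3 DPI being near the share of all genes (list median 1.02 against 0.96). At 7 DPI Tagln (3.11) and Acta2 (2.64), contractile genes that myofibroblasts also use, were highest, and Cox4i2 (1.13) and Kcnj8 (1.18) lowest of those called. Adipocyte markers were called higher in 3, 4, 3 and 7 of 9, at 3 and 7 DPI no more often than all genes (list medians 0.60 and 0.98 against 0.96 and 0.92). At 7 DPI these were Cfd (4.34), Cebpa (2.72), Fabp4 (1.36) and Pparg (1.00), while Lpl (0.98), which passed the adjusted p and fell short of the fold, Adipoq (0.55), Retn (0.52), Plin1 (0.48) and Cidec (0.24) were not called.

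Endothelial and platelet markers bear on the sources of Pdgfb. Their counts and those of the macrophage markers are to be set against the 48.3%, 45.6%, 25% and 21.1% of all genes called higher. The medians of all genes were 0.96, 0.92, 0.53 and 0.52 on those days. Endothelial markers were called higher in 10, 12, 7 and 5 of 15 (list medians 1.08, 1.45, 0.99 and 0.94), with Plvap (3.29) and Pecam1 (1.97) highest and Tek (1.25) and Cdh5 (1.32) lowest of those called at 7 DPI. Of the platelet markers only 2 of 6 passed the filter for testing, of which 2, 1, 1 and 1 were called higher at 3, 7, 14 and 28 DPI. Treml1 had a log2 fold change of 0.85 at 7 DPI and was not called, and Pf4, which macrophages also express, was at 18.5 ± 2.86 TPM in control and 386 ± 141.7 TPM at 7 DPI (log2 fold change 4.23), while Ppbp and Gp1bb were at 0 TPM in all control muscles. Macrophage markers were called higher in 12 of 12 on each day, Lyz2 (6.13) and Cd68 (5.55) most and Cd163 (2.62) and Cd14 (3.44) least at 7 DPI. The part of any of these lists in the PDGF genes was not tested.

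The genes whose pattern was most like each of the 8 were found by Pearson's r of group means of log2(TPM + 1) over 31 groups, which share the contrast of injured and uninjured muscle. Closest to Pdgfra were Colec12 (r = 0.997), Stat6 and Rab3il1, and closest to Pdpn were Anxa2 (r = 0.998), Clic1 and Rasa3. Anxa2 was at 16.2 TPM in control, 869 TPM at 3 DPI and 112 TPM at 28 DPI. Pdgfrb was closest to Dact3 (r = 0.993), Nfatc4 and Bmp1, and Bmp1 was at 2.91 TPM in control, 43.9 TPM at 3 DPI and 77.8 TPM at 7 DPI, a maximum at 7 DPI as for Pdgfrb. Pdgfrl was closest to Lhfp (r = 0.997), Cpq and Tpst1, Pdgfa to Snn (r = 0.986), Sh3d21 and Sema4c, Pdgfc to Actg1 (r = 0.981), Fam60a and Hsd17b12, and Pdgfd to Olfml1 (r = 0.982), Itga11 and C1qtnf1. Pdgfb had no close neighbour, its highest value being 0.779 with Ret, followed by Itih3 and Kera.

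Among the 8 genes themselves, r over the 31 groups was highest between Pdgfra and Pdpn (0.996) and between Pdgfrb and Pdgfrl (0.969). It was 0.910 between the receptors, 0.951 between Pdgfra and its ligand gene Pdgfc and 0.946 between Pdgfrb and Pdgfd. Other pairs were as high, with 0.959 between Pdpn and Pdgfc and 0.950 between Pdgfrb and Pdgfa. The value between Pdgfrb and Pdgfb was 0.536, and that between Pdgfra and Pdgfb 0.328. These values describe the groups, are given with no test and share the libraries and the change in muscle fibre RNA.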

How the data were processed

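The authors pseudo-aligned RNA-Seq reads of whole TA muscle to a rat transcriptome (build 6.0) using Kallisto. The values deposited by the authors are TPM by gene symbol in a single table without counts. The study states an average read depth over all libraries, but that of each library is not in the table, so no count model was run, and no interval for counting error is given. The table's last line, Tubb4a, is incomplete and was left out, leaving 16181 symbols.

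Libraries were joined to labels by title. Libraries with fewer than 7000 symbols above 1 TPM were left out (13 of 138). The 9 libraries whose labels contradict each other were kept out of all comparisons. Libraries of one muscle were averaged. Genes with a mean over 1 TPM in at least 1 of 31 groups were tested on log2(TPM + 1) with limma 3.58.1 (R 4.3.3, intensity trend, 83 residual degrees of freedom), and p values were adjusted by Benjamini-Hochberg over the 11328 genes of a comparison. Fold changes on this scale understate those of low genes. The test was checked on simulated data. Rats are the replicates, but the 4 control muscles come from 2 rats, so p values against control measure the spread between muscles.

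The injured and contralateral muscles of a rat come from the same animal. Their deviations from the group means had a mean correlation of 0.094 over 34 pairs (-0.0002 between different rats), and the rat was a block in an alternative model.

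Named were the 8 genes, for each the 3 genes with the highest r of group means, and for each list the called genes with the 2 highest and 2 lowest log2 fold changes at 7 DPI. Prox1, Treml1, Ppbp, Gp1bb and the adipocyte markers that were not called fall outside this rule and were named after their values were seen. One gene that this rule names is not reported here. Members and lists were chosen with earlier results of these data known. Figures used Python 3.11.15 and matplotlib 3.10.9. Promoters and gene names are from RefSeq tables on GRCr8, and no coordinates of the authors' build were used.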

Additional observations from a re-analysis of the deposited data

Results flagged for a closer look

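Single muscles were looked at in the 16 groups of 4 to 10 muscles, where 9 combinations of gene and group had 1 muscle far from the others by Dixon's test. Chance alone marks about 1 in 20 such combinations. In control muscle the Pdgfb level of rat 38's right TA was 9.11 TPM against 17.7 to 18.5 TPM in the others. Replicate 2 of the graft group at 14 DPI stood high for Pdgfrl at 41.21 TPM, against 25.1 to 26.4 TPM, and for Pdgfd at 7.50 TPM, against 4.37 to 4.78 TPM. Rat 75 (graft, 28 DPI) was low for Pdgfd at 3.22 TPM, against 4.44 to 4.73 TPM, and rat 26 (running, graft, 3 DPI) low for Pdgfrb at 22.73 TPM, against 29.1 to 31.9 TPM. Replicate 5 of the contralateral muscles of grafted rats at 7 DPI held 5.33 TPM of Pdpn, against 3.08 to 3.55 TPM. For Pdgfa, replicate 2 without repair at 14 DPI was at 29.74 TPM, replicate 3 without repair at 28 DPI at 28.54 TPM and replicate 3 of running rats without repair at 14 DPI at 37.60 TPM, the last against 28.8 to 29.9 TPM.

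Some genes differed between days in injured muscle by the adjusted p of limma. From 3 to 7 DPI the log2 differences were -0.76 for Pdgfra, 0.87 for Pdgfrb, 0.82 for Pdgfd and -1.07 for Pdpn, where 38.7% of all genes passed. From 7 to 14 DPI they were -0.80 for Pdgfra, -0.82 for Pdgfrb, -0.26 for Pdgfa, -0.49 for Pdgfc and -1.02 for Pdpn, where 71% of all genes passed and the median of all genes was -0.40.

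The 9 libraries that entered no comparison also held these genes. Pdgfra, Pdgfrl and Pdpn were above the highest control muscle in 9 of 9, Pdgfc in 7, Pdgfrb in 6, and Pdgfa, Pdgfb and Pdgfd in 5 each.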

How the results depend on the processing

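Of 1799 results for single genes under another setting, 1760 kept their call or stayed uncalled. A further 19 gained a call, 18 lost one and 2 gained a call in the opposite direction. Of 2080 with a muscle left out these numbers were 2059, 8, 13 and 0. A gene called under neither setting counts as kept even where its sign turned, as for Pdgfa and Pdgfb against control with size factors. The counts of called genes that moved by more than 1.5 times are as follows; the cause was not tested. With a pseudocount of 0.1, contralateral against control gave 1, 3 and 1 genes at 7, 14 and 28 DPI in place of 0, and 7 against 3 DPI gave 2 in place of 1. With size factors, contralateral against control gave 1 gene at 7 DPI and 1 at 14 DPI, grafted injured against contralateral at 3 DPI gave 3 in place of 5, and 14 against 7 DPI gave 0. With all libraries kept, injured against contralateral at 7 DPI gave 8 in place of 5 (8087 of 11275 genes were called higher in that setting), contralateral against control at 7 DPI gave 3, 7 against 3 DPI gave 2 and 14 against 7 DPI gave 0; in that setting Pdgfa (-1.05, adjusted p = 0.010) and Pdgfb (-1.05, adjusted p = 0.015) were called lower in contralateral muscle than in control at 7 DPI, in place of 0.11 and 0.17, as were 4130 of 11275 genes (median of all genes -0.72), and Pdpn was called higher (1.48). When only the 2 groups compared were fitted, contralateral against control at 3 DPI gave 0 in place of 3. With rat number range in the model, contralateral against control at 7 DPI gave 1 and 7 against 3 DPI gave 0. Leaving out each muscle in turn gave 1 to 3 genes for contralateral against control at 3 DPI and 0 to 1 at 7 DPI, 0 to 2 for 7 against 3 DPI and 0 to 1 for 14 against 7 DPI. It was run for 88 muscles, and not for the injured muscles of running rats at 3 DPI, so the running comparisons on that day were not run without them, nor for the contralateral muscles of running rats, which enter no comparison of the model. The paired model with the rat as a replicate block changed no call of these genes; Pdgfra at 3 DPI against contralateral muscle stayed at 2.90.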

Other observations

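Of the 9 libraries without a group, 8 were the paired libraries of 4 running rats, where title and label disagree on which muscle was injured. Values are given per rat, with no muscle assigned. Pdgfra was at 2.57 and 8.53 TPM in the libraries of rat 77, 2.43 and 9.92 TPM in rat 78, 2.29 and 8.99 TPM in rat 79 and 3.00 and 12.6 TPM in rat 80. Pdpn was at 3.49 and 14.2 TPM, 3.18 and 14.8 TPM, 3.74 and 13.8 TPM, and 3.47 and 17.5 TPM in the same rats. The library of rat 11 whose label gives another day than those of its other libraries held 5.64 TPM of Pdgfra and 6.54 TPM of Pdpn.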
